A study of Mus musculus with 23 samples.

Results

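Expression of 35 interferon-stimulated genes was measured in the liver of male C57BL/6J mice that received pregnenolone carbonitrile (PCN), a ligand of the rodent pregnane X receptor (PXR), and of mice lacking this receptor. The members were taken by gene name from a list of 35 symbols, and each was read from 1 probe, that with the highest mean log2 signal over all arrays among the non-control probes carrying its name. All 35 were found, on 60 probes of which 54 passed the filter on dim signals, and they are 35 of the 20979 named genes tested. The chosen probe passed the filter for every member, and for 34 members it was well above background on all 23 arrays; that of Oas3 was so on 12.

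Wild-type (WT) mice received a daily intraperitoneal injection of corn oil for 4 days (WT CONT, n = 6) or of PCN at 100 mg/kg in corn oil (WT PCN, n = 5), and Pxr-/- mice received corn oil (Pxr-/- CONT, n = 6) or PCN at the same dose (Pxr-/- PCN, n = 6). All mice were male, had free access to food, and were killed 6 h after the last injection, at ZT6. WT mice were purchased at 6 weeks of age, whereas Pxr-/- mice, backcrossed on C57Bl/6J, came from a colony kept at the facility. Genotype and colony therefore cannot be told apart. Mice of both genotypes were acclimatised for 2 weeks, and the age of the Pxr-/- mice is not given. Each array held the liver RNA of 1 mouse, the arrays lay on 8 slides, and they had been washed in 2 batches that each held all 4 groups.

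Interferons are cytokines released when cells detect viral nucleic acid or other danger signals. Type I and type III interferons act through JAK kinases on a complex that holds STAT2 and IRF9 and binds a DNA element called the interferon-stimulated response element (ISRE), and type II interferon acts through JAK kinases on genes with gamma-activated sites (GAS). The genes that are switched on encode sensors of viral RNA, enzymes that degrade or block it, GTPases that attack vacuoles holding pathogens, and proteins that tune the response itself. In resting liver a low tonic signal keeps many of them transcribed, in hepatocytes as well as in resident macrophages.

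On each array, 29510 to 33321 probes were well above background. All 8 hepatocyte markers passed the filter. Cyp3a11, the classical PXR target, had a log2 signal of 17.16 ± 0.16 (SD, n = 5) in WT PCN against 13.62 ± 0.42 (SD, n = 6) in WT CONT, and stood at 14.31 ± 0.52 and 14.62 ± 0.37 (SD, n = 6 each) in Pxr-/- CONT and Pxr-/- PCN. The probe for Nr1i2, which encodes PXR, read 11.47 ± 0.55 in WT CONT and 11.44 ± 0.80 in Pxr-/- CONT (SD, n = 6 each). Whether it lies in the deleted stretch is not known, and it checks nothing.

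In WT mice, 3 of the 35 members fell with PCN: Usp18, Ifit1 and Cmpk2. A gene was called where its adjusted p (limma, Benjamini-Hochberg over all probes) was at most 0.05 and its fold above 1.5, a log2 change beyond 0.585. By this rule 2.40% of all named genes were lower after PCN in WT mice and 3.79% higher, and no member was called higher. By the adjusted p alone 9 members were lower (Usp18, Ddx58, Cmpk2, Ifit1, Ifi44, Stat2, Irgm2, Irf9 and Irf7) against 12.4% of all named genes. The fitted change was below 0 for 33 of the 35 members and for 54.4% of all named genes, with a median of -0.29 over the members, from -0.94 to 0.12, and of -0.02 over all named genes. In the deposited values, where all probes together had a median change of 0.11, 27 members were below 0 and 30 below that median, and Usp18 alone was called. With PCN in Pxr-/- mice no member was called (0.863% of all named genes lower, 1.43% higher), 4 members lower and 3 higher had an unadjusted p under 0.05 by limma (12.3% and 10.6% of all named genes), and the median was 0.04.

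**Figure D1:**
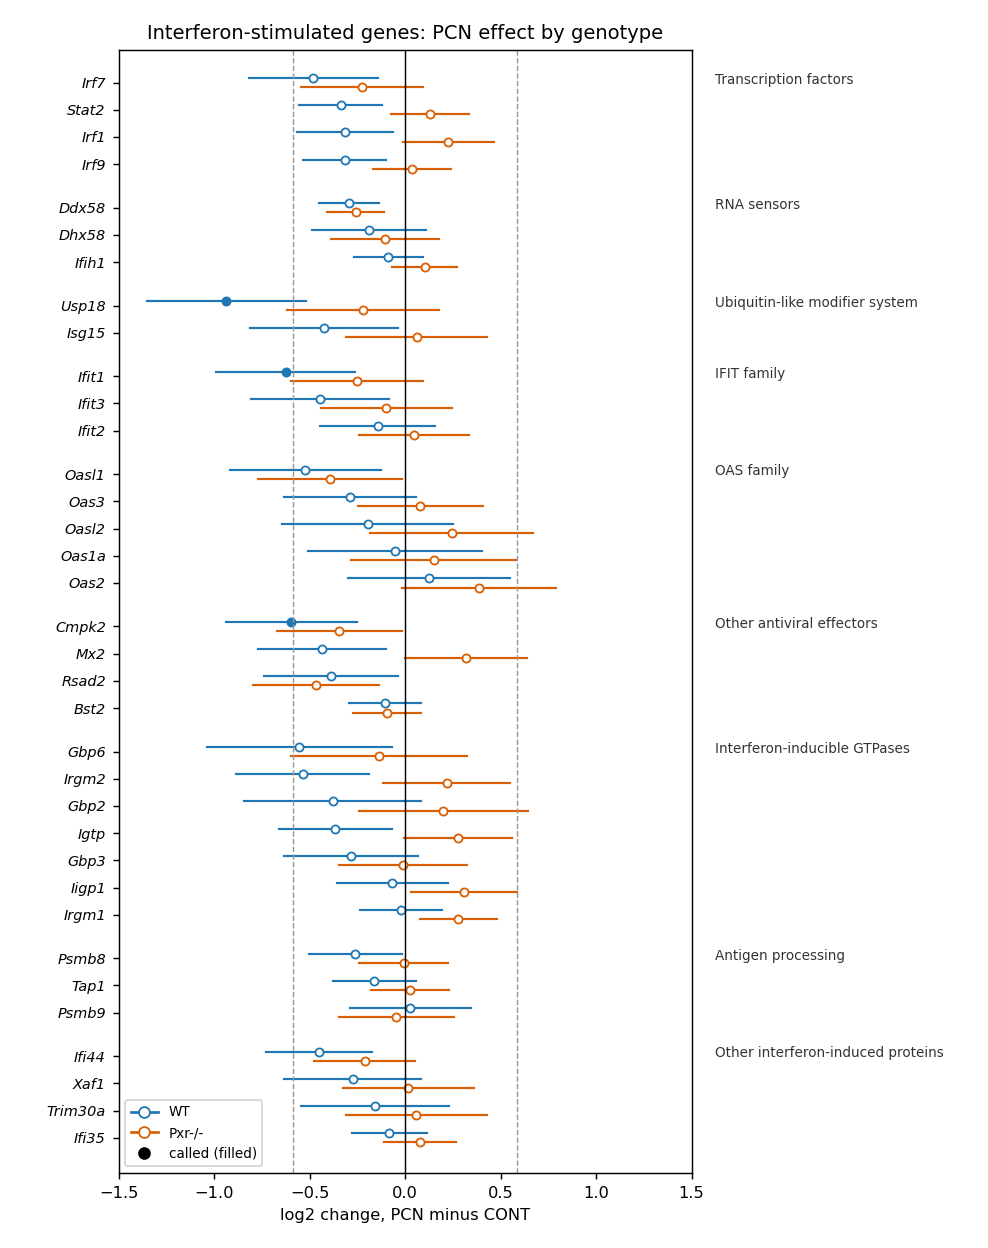
The log2 change from CONT to PCN (horizontal axis) is plotted for the 35 members, grouped by role, in WT (blue) and Pxr-/- mice (orange), with 95% confidence intervals of the limma fit, filled points for called genes and dashed lines at a fold of 1.5. In WT mice 33 of 35 points lie left of 0 and 3 are filled, and in Pxr-/- mice 15 lie left of 0 (53.1% of all named genes) and none is filled.

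The system of the ubiquitin-like modifier ISG15 held the largest change. Usp18 encodes the protease that removes ISG15 from proteins and also restrains the type I interferon receptor. Its log2 signal was 8.85, 8.21, 8.9, 8.32 and 8.92 in the 5 WT PCN mice, against a lowest signal of 9.32, a median of 9.62 and a highest of 9.85 in WT CONT, and the groups did not overlap. It fell by 0.94 ± 0.20 (SE) on the log2 scale, 1.91-fold, with an adjusted p of 0.00199. In Pxr-/- CONT the signal had a lowest signal of 8.74, a median of 9.35 and a highest of 9.84, in Pxr-/- PCN a lowest signal of 8.53, a median of 9.03 and a highest of 9.83, and these groups overlapped over most of their range, with a log2 change of -0.22 ± 0.19 (SE, adjusted p = 0.548). Usp18 remained called when any single mouse was left out.

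Isg15, the modifier itself, read 11.78, 11.03, 11.67, 11.40 and 11.58 in WT PCN, with a lowest signal of 11.69, a median of 11.86 and a highest of 12.24 in WT CONT. All WT PCN mice but replicate 1 were below every WT CONT mouse, and the change of -0.43 ± 0.19 (SE) did not pass (adjusted p = 0.107). The Pxr-/- mice had a lowest signal of 11.15, a median of 11.48 and a highest of 12.26 without PCN and a lowest signal of 11.27, a median of 11.54 and a highest of 12.06 with it, and the change there was 0.06 ± 0.18 (SE, adjusted p = 0.891).

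Among the 3 IFIT genes, whose proteins bind foreign RNA and block its translation, Ifit1 was called. Its signal was 7.25, 6.97, 7.38, 7.06 and 7.33 in WT PCN, against a lowest signal of 7.38, a median of 7.88 and a highest of 8.1 in WT CONT, so that the highest WT PCN mouse reached the lowest WT CONT mouse and no other. The fall was 0.63 ± 0.17 (SE) on the log2 scale, 1.54-fold (adjusted p = 0.0126). Pxr-/- CONT mice had a lowest signal of 7.0, a median of 7.5 and a highest of 8.29, and Pxr-/- PCN mice a lowest signal of 6.93, a median of 7.28 and a highest of 7.53, within the range of the former but for 1 mouse (change -0.25 ± 0.17, SE, adjusted p = 0.404). Ifit3 changed by -0.44 ± 0.17 (SE) in WT mice and Ifit2 by -0.14 ± 0.15, with adjusted p of 0.0694 and 0.519.

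Cmpk2, a mitochondrial nucleotide kinase gene, was the third. It read 6.87, 6.63, 7.22, 7.36 and 7.01 in WT PCN, with a lowest signal of 7.11, a median of 7.68 and a highest of 7.96 in WT CONT, and 2 of the 5 PCN-treated mice lay inside the control range. The fall was 0.60 ± 0.17 (SE) on the log2 scale, 1.51-fold (adjusted p = 0.0121). In the Pxr-/- groups it had a lowest signal of 7.02, a median of 7.23 and a highest of 7.87 without PCN and a lowest signal of 6.58, a median of 7.03 and a highest of 7.31 with it, and its change was -0.35 ± 0.16 (SE, adjusted p = 0.202). Ifit1 and Cmpk2 sat close to the fold threshold: without WT CONT replicate 2, WT CONT replicate 4 or WT PCN replicate 2, only Usp18 was called, and without WT PCN replicate 3 the count was 5.

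Promoter sequences of the members were read to see whether they share the element that the ISRE-binding complex uses. The RefSeq promoter table (GRCm38.p6; 250 bases before to 50 after each gene's start) held 34 windows for 29 of the 35 members, and none for Dhx58, Usp18, Oas2, Mx2, Gbp6 and Iigp1. The letters GAAANNGAAA, searched on both strands as a short form of the ISRE, were present for 16 of the 29 members (55.2%) and for 3.99% of the 27025 genes in the table (3.44% of its 32851 windows). The letters TTCNNNGAA, a short form of the GAS that reads the same on both strands, were present for 8 members (27.6%) and for 9.55% of genes (8.3% of windows). No hit of one overlapped the other in the stretches printed below. The 4 stretches shown are of 2 genes with several ISRE letters, 1 with both elements and 1 called gene with neither, each given as the 150 bases up to the start, 5′ to 3′ on the gene's strand, with matches in capitals.
Ifit1 (chr19:34640739-34640888, + strand): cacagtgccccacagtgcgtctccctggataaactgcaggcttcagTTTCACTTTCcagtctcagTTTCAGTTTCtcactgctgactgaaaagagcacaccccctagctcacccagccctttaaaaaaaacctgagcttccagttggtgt
Isg15 (chr4:156200819-156200968, - strand): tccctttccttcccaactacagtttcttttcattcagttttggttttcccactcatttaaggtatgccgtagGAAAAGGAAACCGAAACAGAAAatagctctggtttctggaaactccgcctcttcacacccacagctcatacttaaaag
Irgm2 (chr11:58214827-58214976, + strand): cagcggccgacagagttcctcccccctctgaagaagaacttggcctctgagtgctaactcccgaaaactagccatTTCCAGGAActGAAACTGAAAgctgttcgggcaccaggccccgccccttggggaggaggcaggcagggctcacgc
Cmpk2 (chr12:26469065-26469214, + strand): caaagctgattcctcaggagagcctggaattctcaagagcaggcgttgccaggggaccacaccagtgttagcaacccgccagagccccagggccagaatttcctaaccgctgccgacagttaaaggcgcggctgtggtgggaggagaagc
Ifit1 had 2 ISRE matches, which begin at -104 and -85 relative to the start, and Isg15 had 3 that overlap one another, beginning at -78, -72 and -66. In Irgm2 a GAS match at -75 stood next to an ISRE match at -64. Cmpk2, called lower in WT mice like Ifit1, held neither set of letters in its window. Stat2 held 1 ISRE match, at -222, outside the stretches shown.

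The transcription factor genes of the pathway were lower in WT PCN by less than the fold threshold. Stat2 and Irf9 encode subunits of the complex that binds the ISRE, and Irf7 encodes the factor that amplifies interferon transcription. Stat2 read 11.29, 11.21, 11.27, 11.61 and 11.32 in WT PCN and had a lowest signal of 11.42, a median of 11.69 and a highest of 11.92 in WT CONT. The change was -0.34 ± 0.10 (SE, adjusted p = 0.0233), and replicate 4 was the only WT PCN mouse above the lowest control. The signal in Pxr-/- mice had a lowest signal of 11.14, a median of 11.56 and a highest of 11.72 without PCN and a lowest signal of 11.45, a median of 11.68 and a highest of 11.86 with it, a change of 0.13 ± 0.10 (SE, adjusted p = 0.481).

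Irf9 read 11.68, 11.24, 11.20, 11.43 and 11.45 in WT PCN, against a lowest signal of 11.52, a median of 11.70 and a highest of 11.85 in WT CONT, a change of -0.32 ± 0.10 (SE, adjusted p = 0.0317). The Pxr-/- PCN mice lay within a narrow span, a lowest signal of 11.60, a median of 11.68 and a highest of 11.73, and Pxr-/- CONT had a lowest signal of 11.10, a median of 11.73 and a highest of 11.78, where replicate 5 was far below the other 5 mice. The change in Pxr-/- mice was 0.04 ± 0.10 (SE, adjusted p = 0.883). For Irf7 the WT PCN mice read 13.16, 12.67, 13.43, 12.33 and 12.91, the widest spread of these factors, and WT CONT had a lowest signal of 13.05, a median of 13.43 and a highest of 13.60, a change of -0.48 ± 0.16 (SE, adjusted p = 0.0365). The Pxr-/- groups had a lowest signal of 12.86, a median of 13.22 and a highest of 13.57 and a lowest signal of 12.63, a median of 12.95 and a highest of 13.32 (change -0.23 ± 0.15, SE, adjusted p = 0.427). A second Irf7 probe gave -0.14 in WT mice (adjusted p = 0.72), so the probes of this gene disagreed. Irf1, which acts downstream of interferon gamma, changed by -0.32 ± 0.12 (SE) in WT mice and did not pass (adjusted p = 0.0628).

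The remaining groups held no called member other than Cmpk2, which belongs to the other antiviral effectors described below. Of the 3 cytosolic RNA sensor genes, Ddx58, which encodes RIG-I, was the only member whose adjusted p passed in both genotypes, with log2 changes of -0.29 ± 0.08 (SE, adjusted p = 0.00731) in WT and -0.26 ± 0.07 (SE, adjusted p = 0.0336) in Pxr-/- mice, both under the fold threshold. That holds for the chosen probe. The other Ddx58 probes past the filter also had changes below 0 in both genotypes. None of them passed in Pxr-/- mice (limma, adjusted p = 0.0947, 0.209 and 0.519), and in WT mice their adjusted p were 0.0127, 0.0607 and 0.0522. In Pxr-/- mice 3.64% of all named genes were lower by the adjusted p alone. The WT CONT and WT PCN mice did not overlap for Ddx58, Usp18 and Ifi44, 3 of 35 members, and 6.52% of all named genes were lower without overlap.

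The OAS genes encode synthases of a short adenylate that activates RNase L, and OAS-like proteins. None of the 5 passed in WT mice, 4 had changes below 0, and the values ran from -0.52 (Oasl1) to 0.12 (Oas2). Oasl1, whose protein restrains Irf7 translation, read 11.28, 11.19, 11.46, 10.58 and 11.24 in WT PCN and had a lowest signal of 11.30, a median of 11.70 and a highest of 12.12 in WT CONT (change -0.52 ± 0.19, SE, adjusted p = 0.0521). In Pxr-/- mice it had a lowest signal of 11.33, a median of 11.72 and a highest of 12.16 without and a lowest signal of 10.79, a median of 11.24 and a highest of 11.82 with PCN (change -0.39 ± 0.18, SE, adjusted p = 0.211). Oas2 went the other way in the fit, with 9.82, 9.11, 10.35, 9.43 and 9.7 in WT PCN and a lowest signal of 8.98, a median of 9.63 and a highest of 9.82 in WT CONT, and neither this difference nor that in Pxr-/- mice passed (adjusted p = 0.71 and 0.252). The Pxr-/- groups had a lowest signal of 8.89, a median of 9.26 and a highest of 9.86 and a lowest signal of 9.49, a median of 9.73 and a highest of 10.10 for Oas2, and the intervals of its change, -0.30 to 0.55 in WT and -0.01 to 0.79 in Pxr-/- mice, took in both directions.

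Of the other antiviral effectors, Rsad2, the neighbour of Cmpk2 in the genome, encodes viperin, which makes a chain-terminating nucleotide. Rsad2 read 8.14, 7.65, 7.9, 7.97 and 8.09 in WT PCN and had a lowest signal of 7.66, a median of 8.37 and a highest of 8.78 in WT CONT, a change of -0.39 ± 0.17 (SE, adjusted p = 0.101). Its change in Pxr-/- mice, from a lowest signal of 7.81, a median of 8.08 and a highest of 8.6 to a lowest signal of 7.42, a median of 7.69 and a highest of 8.01, was the largest of any member there at -0.47 ± 0.16 (SE, adjusted p = 0.0829). A second Rsad2 probe passed the adjusted p in WT mice (-0.50, adjusted p = 0.00351) and did not in Pxr-/- mice (-0.25, adjusted p = 0.183).

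Mx2, a dynamin-like GTPase gene, went in opposite directions by genotype in the fit. It read 8.61, 8.2, 8.46, 8.98 and 8.88 in WT PCN, with a lowest signal of 8.8, a median of 9.0 and a highest of 9.36 in WT CONT (-0.44 ± 0.16, SE, adjusted p = 0.0543), while the Pxr-/- mice had a lowest signal of 8.07, a median of 8.92 and a highest of 9.01 without and a lowest signal of 8.72, a median of 9.14 and a highest of 9.39 with PCN (0.32 ± 0.15, SE, adjusted p = 0.23). Bst2, which encodes the virion tether tetherin, changed by -0.10 ± 0.09 and -0.09 ± 0.09 (SE) in the 2 genotypes.

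The interferon-inducible GTPases, which coat and disrupt vacuoles of intracellular pathogens, all had changes below 0 in WT mice after quantile normalisation (7 of 7), and 5 of 7 did in the deposited values. Irgm2 was the member of this family that passed the adjusted p, at 0.0247, with 11.80, 11.09, 11.25, 11.85 and 11.71 in WT PCN, a lowest signal of 11.77, a median of 12.01 and a highest of 12.38 in WT CONT and a change of -0.54 ± 0.17 (SE). The signal in Pxr-/- mice had a lowest signal of 11.19, a median of 11.66 and a highest of 12.05 without and a lowest signal of 11.56, a median of 11.88 and a highest of 12.15 with PCN, a change of 0.22 ± 0.16 (SE, adjusted p = 0.463). Both WT PCN mice and all 3 Pxr-/- CONT mice of washing batch 2 were below every WT CONT mouse. So were, in batch 1, WT PCN replicate 5 and Pxr-/- PCN replicates 3 and 5.

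Gbp2 read 8.55, 7.88, 8.83, 8.18 and 7.89 in WT PCN and had a lowest signal of 8.38, a median of 8.5 and a highest of 9.56 in WT CONT, where replicate 2 stood far above the other mice. It had a lowest signal of 8.23, a median of 8.56 and a highest of 9.12 in Pxr-/- CONT and a lowest signal of 8.4, a median of 8.74 and a highest of 9.46 in Pxr-/- PCN, and none of its 5 comparisons passed (adjusted p from 0.14 to 0.968). Irgm1, with 11.52, 11.15, 11.38, 11.34 and 11.14 in WT PCN and a lowest signal of 11.21, a median of 11.25 and a highest of 11.58 in WT CONT, hardly moved in WT mice (-0.02 ± 0.10, SE). In Pxr-/- mice it had a lowest signal of 10.66, a median of 10.97 and a highest of 11.34 without and a lowest signal of 11.13, a median of 11.22 and a highest of 11.34 with PCN (0.28 ± 0.10, SE, adjusted p = 0.0907). Iigp1 likewise read 14.72, 14.14, 14.35, 14.77 and 14.73 in WT PCN and had a lowest signal of 14.17, a median of 14.61 and a highest of 14.96 in WT CONT (-0.07 ± 0.14, SE), and a lowest signal of 13.97, a median of 14.17 and a highest of 14.58 and a lowest signal of 14.31, a median of 14.57 and a highest of 14.71 in the Pxr-/- groups (0.31 ± 0.13, SE, adjusted p = 0.174). The other 3, Gbp3, Gbp6 and Igtp, changed by -0.28, -0.55 and -0.37 in WT mice with adjusted p of 0.245, 0.0908 and 0.0671.

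The 3 antigen processing genes, for 2 immunoproteasome subunits and a peptide transporter, stayed between -0.26 (Psmb8) and 0.03 (Psmb9) in WT mice and none passed. Among the 4 remaining interferon-induced genes the changes ran from -0.45 for Ifi44 (adjusted p = 0.0181) to -0.08 for Ifi35 (adjusted p = 0.589).

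**Figure D2:**
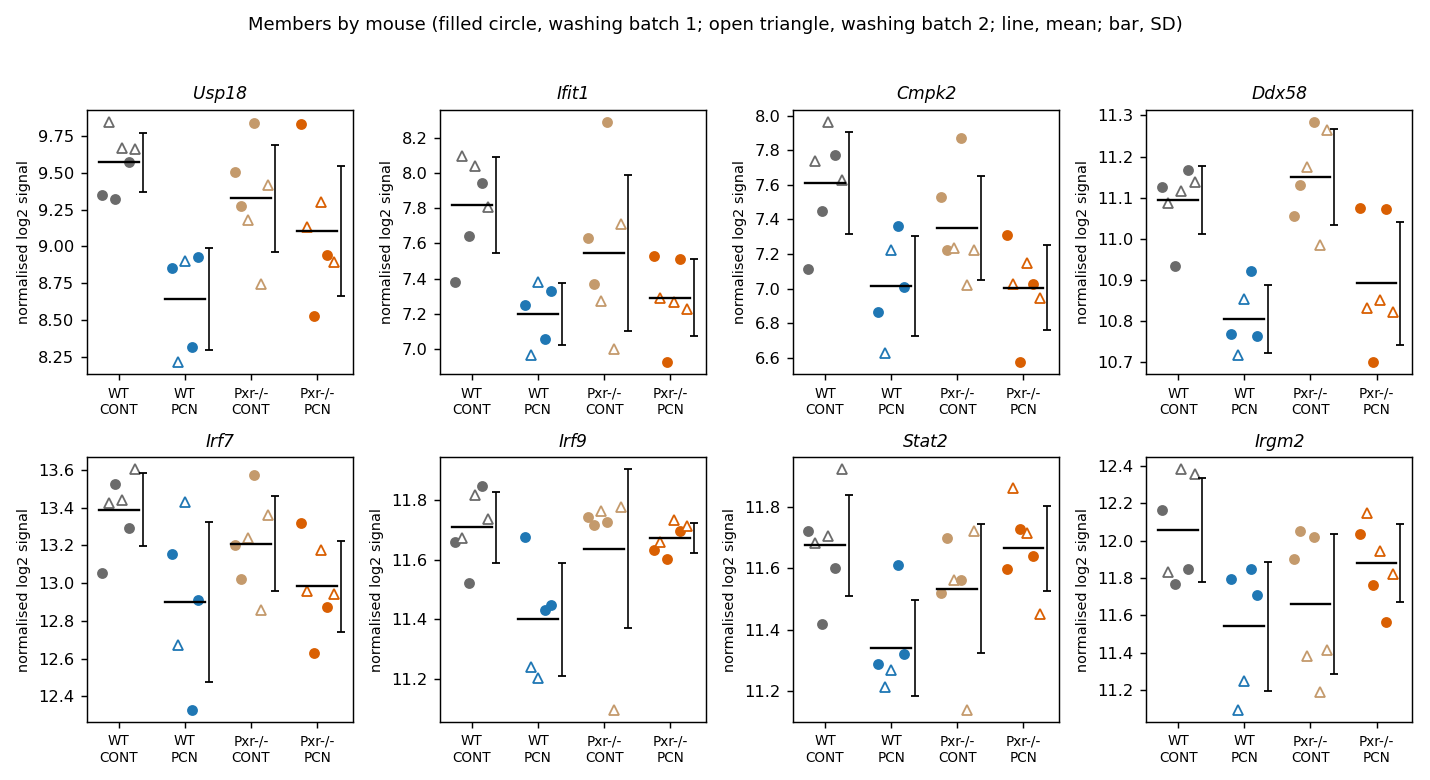
The quantile-normalised log2 signal of 8 members is plotted for each mouse by group, with the mean (line) and SD (bar), filled circles for washing batch 1 and open triangles for batch 2. The 5 WT PCN mice sit below all 6 WT CONT mice for Usp18 and Ddx58, and 1 Pxr-/- CONT mouse, replicate 5, is the lowest of its group for all 8 members.

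Whether PCN acted differently in the 2 genotypes was tested as the difference between the effects (WT minus Pxr-/-). On the chosen probes no member passed, by limma with an adjusted p of at most 0.05, and 8 members had an unadjusted p under 0.05, all with a more negative change in WT mice (7.22% of all named genes). At an adjusted p of at most 0.05, 0.510% of all named genes were lower in this difference and 1.06% higher, and with the fold threshold 0.243% and 0.810%. The difference was below 0 for 33 of 35 members, against 52.1% of all named genes, with a median of -0.27 over the members and -0.01 over all named genes. Both effects enter it, so it repeats the directions given above. The furthest from 0 were Mx2 at -0.76 ± 0.22 (SE), Irgm2 at -0.76 ± 0.23 and Usp18 at -0.71 ± 0.28, with adjusted p of 0.0975, 0.113 and 0.229. For Usp18 the 95% interval of the difference, with no adjustment over genes, ran from -1.29 to -0.14. Ifit1, Isg15 and Cmpk2 differed by -0.37 ± 0.24, -0.49 ± 0.26 and -0.25 ± 0.23 (SE), none of which passed (adjusted p = 0.515, 0.407 and 0.674).

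The other 19 probes of members that passed the filter gave a difference between the genotypes for 2 genes of the ISRE-binding complex. On the second Stat2 probe, WT PCN mice had a lowest signal of 6.0, a median of 6.11 and a highest of 6.17, and WT CONT mice 6.32, 6.51 and 6.57. The Pxr-/- CONT mice read 6.24, 6.35 and 6.6 on it, and the Pxr-/- PCN mice 6.37, 6.54 and 6.88. The difference between the effects was -0.59 ± 0.11 (SE, adjusted p = 0.00448), just past the fold threshold. It was -0.37 with normexp background correction (adjusted p = 0.0276) and -0.52 in the deposited values (adjusted p = 0.0457), under that threshold. It was also under it with no washing batch term (-0.579), with slide as a block (-0.5848) and with only probes well above background on all arrays (-0.568). So it was in some fits with 1 mouse left out, such as -0.53 without Pxr-/- PCN replicate 5. Within washing batches 1 and 2 it was -0.60 and -0.54 (adjusted p = 0.163 and 0.134). On the same probe, PCN-treated Pxr-/- mice were higher than PCN-treated WT mice by 0.49 (adjusted p = 0.000592), under the fold threshold. Within washing batches 1 and 2 this comparison gave 0.61 and 0.34 (adjusted p = 0.0261 and 0.217). On the second Irf9 probe the difference was -0.54 ± 0.12 (SE, adjusted p = 0.0201), under the fold threshold. It did not pass in the deposited values (-0.43, adjusted p = 0.155) or within washing batches 1 and 2 (-0.27 and -0.84, adjusted p = 0.496 and 0.0615). The chosen probes of the same genes gave -0.47 ± 0.14 and -0.35 ± 0.14 (SE) in the same direction and did not pass (adjusted p = 0.114 and 0.252). Both genes were singled out here after their values were seen, and the second probes are by the rule dimmer than the chosen ones.

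Between the control groups, Pxr-/- CONT against WT CONT, no member was called by limma, with 0.0810% of all named genes called lower and 0.229% higher. By the same test 5 members lower and 1 higher had an unadjusted p under 0.05 (5.96% and 6.23% of all named genes). The fitted difference was below 0 for 27 of 35 members and 51.4% of all named genes (median -0.13). This median was -0.06 without Pxr-/- CONT replicate 5, -0.22 without Pxr-/- CONT replicate 4 and -0.27 in the deposited values. The furthest were Irgm2 at -0.40 ± 0.16 (SE), Iigp1 at -0.38 ± 0.13 and Irgm1 at -0.37 ± 0.10, with adjusted p of 0.352, 0.28 and 0.11. Between the PCN-treated groups no member was called either (0.734% of all named genes higher, 1.37% lower), and 7 members, all higher, had an unadjusted p under 0.05 (12.7% of all named genes). The fitted difference was above 0 for 31 of 35 members and 51.9% of all named genes (median 0.18), and was 0.54 ± 0.22 (SE) for Gbp2, 0.49 ± 0.16 for Mx2 and 0.47 ± 0.20 for Usp18 (adjusted p = 0.14, 0.062 and 0.159). In the deposited values this median was -0.04, where all probes together sat at -0.18. These comparisons share groups with the PCN effects above. A second Iigp1 probe was the only probe of a member called there, at 0.62 (adjusted p = 0.0164), while the chosen Iigp1 probe gave 0.00 ± 0.14 (SE). That call was lost with normexp (0.48), in the deposited values (0.47), without WT PCN replicate 2 (0.57, adjusted p = 0.055), without Pxr-/- PCN replicate 5 (0.43), in a fit of the compared groups alone (0.63, adjusted p = 0.0643) and within washing batches 1 and 2 (0.79 and 0.43, adjusted p = 0.131 and 0.253).

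Washing batch moved with the WT result. Within batch 2, with 3 WT CONT and 2 WT PCN mice, the median change of the members in WT mice was -0.48, 34 of 35 were below 0 and 7 were called lower (Usp18, Ifit1, Rsad2, Cmpk2, Gbp6, Irgm2 and Ifi44) against 1.44% of all named genes. Within batch 1, with 3 mice of each group, the median was -0.13, 26 of 35 were below 0 and none was called, against 2.96% of all named genes. For the WT change, a limma test of the difference between the batches passed for no member (lowest adjusted p = 0.116, Iigp1) and for 0.00477% of all named genes. By this test 8 members had an unadjusted p under 0.05, and so did 10.5% of all named genes. Usp18 was the only member whose fitted change passed 1.5-fold in both, at -0.72 in batch 1 (adjusted p = 0.125). The difference between the genotypes had a median of -0.71 in batch 2, where Irgm2 and Iigp1 were called against 0.0620% of all named genes, and of -0.01 in batch 1. It was below 0 for 34 of 35 members in batch 2 and for 18 in batch 1 (52.5% and 49.7% of all named genes). The test between the batches passed for no member here (lowest adjusted p = 0.0982, Irgm2), and 13 had an unadjusted p under 0.05 (12.6% of all named genes). Pxr-/- CONT against WT CONT had a median of -0.35 in batch 2, where Iigp1 was called lower (0.0715% of all named genes), and of 0.11 in batch 1. All 35 members were lower in batch 2 than in batch 1 in this comparison (52.1% of all named genes). None passed the test between the batches (lowest adjusted p = 0.183, Irgm2), and 14 had an unadjusted p under 0.05 (12.0% of all named genes). With PCN in Pxr-/- mice the median was -0.12 in batch 1 and 0.12 in batch 2, and 6 members had an unadjusted p under 0.05 in that test (5.54% of all named genes). Between the PCN-treated groups 4 did (5.55% of all named genes). The share of washing in these differences was not tested apart from the mice that each batch held.

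**Figure D3:**
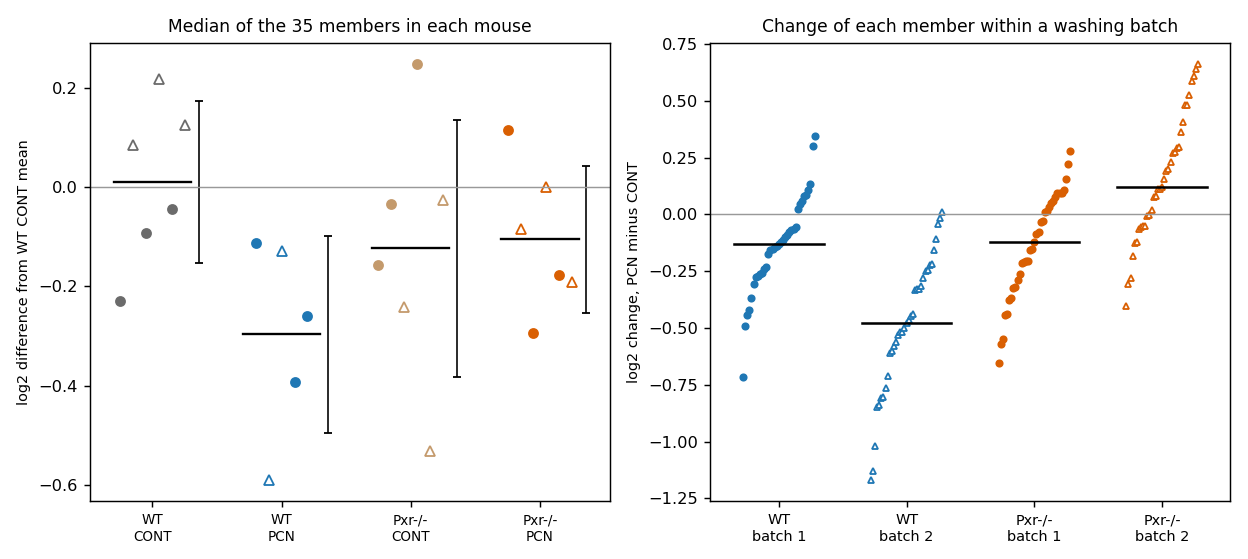
The left panel plots, for each mouse, the median over the 35 members of its log2 difference from the WT CONT mean, by group with mean and SD. The right panel plots the log2 change of each member within a washing batch by genotype, with the median as a line. Filled circles are batch 1 and open triangles batch 2; the WT median is -0.13 in batch 1 and -0.48 in batch 2.

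Within a group, the members deviated together from mouse to mouse. The median over members of a mouse's log2 difference from the WT CONT mean ran from -0.23 to 0.22 in WT CONT, with the 3 mice of washing batch 2 above 0 and the 3 of batch 1 below. In WT PCN it was -0.11, -0.59, -0.13, -0.39 and -0.26 in replicates 1 to 5. The Pxr-/- CONT mice ran from -0.53 to 0.25, the widest span of the 4 groups, and the Pxr-/- PCN mice from -0.29 to 0.12. WT PCN replicate 2 was the lowest of its group for 24 of 35 members, against 20.2% of all named genes. In Pxr-/- CONT, replicate 4 was the highest for 27 members (15.8% of all named genes) and replicate 5 the lowest for 25 (14.7%). In Pxr-/- PCN, replicate 1 was the highest for 22 (19.4%). The SD within groups had a median of 0.29 over the members and of 0.18 over all named genes. The members of a mouse come from 1 RNA sample and are not replicates.

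**Figure D4:**
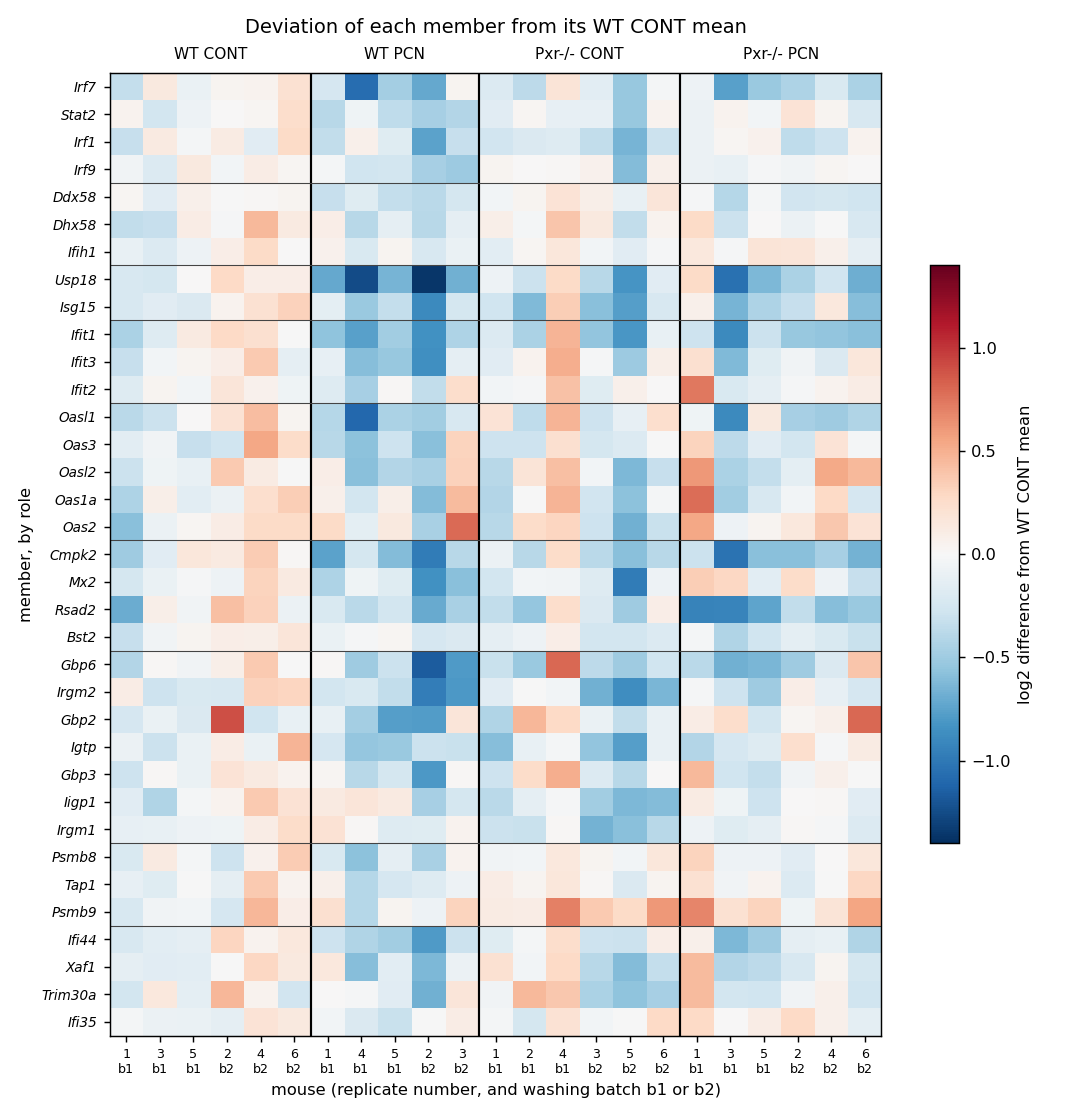
The log2 difference of each of the 35 members (rows, by role) from its WT CONT mean is plotted for each of the 23 mice (columns, by group and washing batch), blue below and red above that mean. Most of a column shares a colour in Pxr-/- CONT replicates 4 (red) and 5 (blue) and in WT PCN replicate 2 (blue).

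Other genes of the pathway were read from lists that were set beside the members. Of 50 further interferon-stimulated genes, 47 were on the array and 46 passed the filter. None was called in any comparison, 35 had a change below 0 in WT mice (median -0.15), and 6 were lower and 1 higher by the adjusted p alone, against the 54.4% of all named genes below 0 and the 12.4% lower given above. The 6 were Dtx3l, Oas1b, Ifi27, Oas1c, Samd9l and Parp9, from -0.58 (Ifi27) to -0.24 (Parp9), and the other was Ifitm1 at 0.41. The median of this list in Pxr-/- mice was -0.01. Of 15 class I antigen presentation genes none was called, with medians of -0.06 in WT and 0.10 in Pxr-/- mice.

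Of 12 interferon genes, 11 were on the array and 4 passed the filter (Ifna1, Ifna5, Ifnk and Ifnl3), none was called, and their changes lay between -0.13 and 0.03 in both genotypes. Ifnb1 and Ifng were well above background on 2 and 6 of the 23 arrays. Among the 11 receptors, kinases and STATs, Stat3 rose in Pxr-/- mice (0.75 ± 0.19, SE, adjusted p = 0.021) and read 0.44 ± 0.20 in WT mice (adjusted p = 0.115). Among 14 sensors, adaptors and kinases, Ikbke rose in WT mice (0.60 ± 0.13, SE, adjusted p = 0.00273) and Myd88 in Pxr-/- mice (0.65 ± 0.16, SE, adjusted p = 0.0205). Among 14 inhibitors of the pathway, Socs1 rose in WT mice (0.68 ± 0.18, SE, adjusted p = 0.00898), and Socs3 (1.91 ± 0.43, SE, adjusted p = 0.0105) and Ptpn1 (0.78 ± 0.11, SE, adjusted p = 0.000489) in Pxr-/- mice. SOCS1, SOCS3 and PTPN1 limit JAK signalling. For these 6 genes the difference between the genotypes did not pass (adjusted p from 0.452 to 0.881), and none of the 6 other interferon regulatory factor genes was called.

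In bulk liver, fewer cells of a type and less RNA per cell cannot be told apart, and marker lists of other cells were therefore read beside the members. Of 8 neutrophil and monocyte markers 7 passed, and S100a8, S100a9, Cxcr2 and Ccr2 rose in WT mice, the first 3 in Pxr-/- mice too (S100a8 by 2.21 ± 0.46 and 2.19 ± 0.44, SE, log2). Of the other 3, Csf3r was lower in WT mice by the adjusted p alone (-0.23, adjusted p = 0.0398) and Ly6g and Ly6c2 read 0.16 and -0.05. The marker signals were also summed on the linear scale, where the brightest markers weigh most, and the log2 of the sum is given. For neutrophil and monocyte markers it was 14.80 to 15.23 in WT CONT and 14.86 to 15.36 in WT PCN. It was 14.90 to 15.13 in Pxr-/- CONT and 15.13 to 15.63 in Pxr-/- PCN. All 6 plasmacytoid dendritic cell markers passed and none was called, with 4 of 6 below 0 and a median of -0.02 in WT mice. The log2 of their summed signal was 15.18 to 15.37 in WT CONT and 14.89 to 15.21 in WT PCN. In Pxr-/- CONT and Pxr-/- PCN it was 15.04 to 15.42 and 15.09 to 15.42. By the adjusted p alone 1 of the 6, Siglech, was lower in WT PCN (-0.24 ± 0.07, SE, adjusted p = 0.0199), against 12.4% of all named genes. Of 12 lymphocyte and natural killer cell markers 10 passed, and Cd8a was not well above background on any array. In WT mice 8 of the 10 had changes below 0 (median -0.17), and Cd3g and Cd3d were lower by the adjusted p alone (-0.45 and -0.37, adjusted p = 0.00641 and 0.0253). Their median was 0.07 in Pxr-/- mice and -0.22 for the difference between the effects, in which none passed. Cd4 was called higher in Pxr-/- PCN than in WT PCN (0.77 ± 0.23, SE, adjusted p = 0.0401). The log2 of the summed signal of these markers was 11.76 to 13.01 in WT CONT and 12.12 to 12.44 in WT PCN. It was 12.18 to 13.00 in Pxr-/- CONT and 12.51 to 13.33 in Pxr-/- PCN. On this sum the PCN-treated groups did not overlap.

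Among the hepatocyte markers, the difference between the PCN effects was below 0 for 7 of 8, with a median of -0.28 beside the -0.27 of the members, and Apob and Apoa1 passed the adjusted p (-0.56 and -0.58, adjusted p = 0.00124 and 0.0344). Apoa1 rose with PCN in Pxr-/- mice (0.62, adjusted p = 0.000955), and Tat was called higher in Pxr-/- PCN than in WT PCN (0.73 ± 0.22, SE, adjusted p = 0.0436), a comparison in which the markers had a median of 0.27 and the members one of 0.18. The log2 of the summed signal of the hepatocyte markers was 19.99 to 20.30 in WT CONT and 20.01 to 20.13 in WT PCN. It was 20.11 to 20.21 in Pxr-/- CONT and 20.13 to 20.24 in Pxr-/- PCN. None of 11 Kupffer cell and macrophage markers and 8 endothelial markers was called in any comparison. With PCN, 2 of the 11 macrophage markers were below 0 in WT mice (median 0.15) and 0 in Pxr-/- mice (median 0.29). Of the 8 endothelial markers, 4 were below 0 in WT mice (median -0.01) and 0 in Pxr-/- mice (median 0.19). In Pxr-/- CONT against WT CONT, 11 of 11 and 6 of 8 were below 0 (medians -0.11 and -0.12). Of all named genes, 54.4%, 53.1% and 51.4% were below 0 in these comparisons. For the difference between the effects, 7 of the 11 macrophage markers were below 0 (median -0.06), as were 7 of the 8 endothelial ones (median -0.18). The part of these cells in the changes of the members was not tested.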

How the data were processed

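Liver RNA of 23 mice was hybridised by the authors to 1-colour (Cy3) Agilent mouse arrays, 62976 spots each. The deposited scanner files, made with Feature Extraction 10.10.1.1, hold the median pixel intensity per spot, with no normalisation between arrays, and the deposited value table holds log2 values that the authors had filtered, corrected for washing batch and normalised between arrays (CrossNorm). Here, the median intensity was put on the log2 scale, 2225 outlier spots were set to missing, spots of a probe were averaged, and a probe was kept where some group had it well above background in over 50% of its mice (32087 of 56605), followed by quantile normalisation. limma 3.58.1 (R 4.3.3) fitted group and washing batch over all 23 arrays, with 18 residual degrees of freedom. A gene was called at an adjusted p (Benjamini-Hochberg over all probes) of at most 0.05 and a fold above 1.5. Percentages of all named genes are over 20979 genes with 1 probe each. The fit was tested on simulated data. Precision rests on the number of arrays.

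Alternatives were other signals, scalings and filters, slide or replicate number as a block, no washing batch term, the batches apart and each mouse left out, and a test of the difference between the batches was added after the data had been seen. Values of each WT PCN mouse, and the lowest, median and highest of the groups of 6, are given for members called in any comparison, the 3 furthest from 0 in each, and Irf7, Irf9, Stat2, Isg15 and Ifit1. Pathway and marker genes are named where called, and others were named after their values were seen. The members, lists and tests were chosen with earlier results of these data known. Replicate numbers do not pair the groups, which are separate mice.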

Additional observations from a re-analysis of the deposited data

Results flagged for a closer look

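A sample far from the others of its group was searched for in 144 sets of values, the 35 members and their median in each of 4 groups, and 9 sets held one, where chance flags about 1 in 20 (7.2). Pxr-/- CONT replicate 5 was the lowest for 4 of them, with a log2 signal of 11.10 for Irf9 (the next mouse at 11.72), 11.14 for Stat2 (11.52), 11.67 for Irf1 (11.98) and 8.07 for Mx2 (8.78). Pxr-/- CONT replicate 4 was the highest for Gbp6 at 8.32 (the next at 7.24). In Pxr-/- PCN, replicate 1 was the highest for Ifit2 at 6.98 (6.35). In WT CONT, replicate 2 was the highest for Gbp2 at 9.56 (8.57) and replicate 3 the lowest for Ddx58 at 10.93 (11.09). In WT PCN, replicate 4 was the highest for Stat2 at 11.61 (11.32).

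The PCN effect differed between the genotypes, by a limma test of the difference itself, on the second probe of Stat2 (-0.59 on the log2 scale, WT minus Pxr-/-, adjusted p = 0.00448) and on that of Irf9 (-0.54, adjusted p = 0.0201). Pxr-/- CONT replicate 5 stood apart for both genes on the chosen probes only, and the second probes were not searched for such mice. Without it the second probes gave -0.56 (adjusted p = 0.0115) and -0.49 (adjusted p = 0.0417). With each mouse left out in turn, they ran from -0.63 to -0.53 for Stat2 and from -0.61 to -0.49 for Irf9. Without WT PCN replicate 2, the Irf9 value was -0.50 (adjusted p = 0.0563), and in the deposited values -0.43 (adjusted p = 0.155). The Stat2 value was -0.37 with normexp (adjusted p = 0.0276). Within the washing batches neither passed (adjusted p from 0.0615 to 0.496).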

How the results depend on the processing

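The direction of the members' median in WT mice was below 0 in every alternative run, from -0.30 to -0.16 outside the single batches (-0.13 in batch 1) and from -0.34 to -0.21 with 1 mouse left out. The count of 3 called in WT mice was 1 with normexp background correction and 1 in the deposited values, 0 within washing batch 1, 7 within batch 2, 9 with no fold threshold, and 1 to 5 with 1 mouse left out. For Pxr-/- mice it was 1 (Ddx58) with no fold threshold. For the difference between the effects it was 2 within batch 2 and 0 to 1 with 1 mouse left out, and for Pxr-/- CONT against WT CONT it was 1 within batch 2. The median within batch 2 was -0.48 for WT mice. Within batches 1 and 2 it was -0.0121 and -0.71 for the difference and 0.11 and -0.35 for Pxr-/- CONT against WT CONT. For Pxr-/- PCN against WT PCN it was -0.0449 in the deposited values. The cause of these shifts was not tested.

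Changes that took the opposite sign within batch 1 were those of Irf9 (-0.0850) and Isg15 (-0.15) in Pxr-/- mice, the differences between the effects of Isg15 (0.0195), Ifit1 (0.00142), Cmpk2 (0.20) and Irgm2 (0.0632), and Pxr-/- CONT against WT CONT for Irgm2 (0.0657) and Iigp1 (0.0290). With 1 mouse left out, the change in Pxr-/- mice lay between -0.0700 and 0.0732 for Irf9 and between -0.0341 and 0.206 for Isg15.

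With the replicate number as a replicate block, the median in WT mice was -0.28 and 3 members were called. Same-numbered mice correlated between -0.25 and 0.49 in their deviations from the group means, and 7 of 23 matched best with their own number. For WT CONT with Pxr-/- CONT the mean was 0.22 for same-numbered mice and -0.04 for others. For WT PCN with Pxr-/- CONT it was -0.01 and 0.00. The numbers were not taken as pairs because the groups are separate mice. With 5 or 6 mice a group, the median 95% half-width of a member's log2 change was 0.34 in WT and 0.32 in Pxr-/- mice.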
